A study of Mus musculus with 10 samples.

Results

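The genes described are 38 genes of R-loop resolution and DNA repair, out of 19367 genes that had at least 1 measured 3′ end in RNA sequencing of mouse embryonic stem cells (mESC). They were chosen by name and not by a rule on their measured values, though with earlier results of these data known. They fall into 4 sets: 9 RNase H and R-loop factors, 8 Fanconi genes, 11 homologous recombination genes and 10 checkpoint signalling genes. Cells of 3 genotypes, all of strain C57BL/6, were compared: wild type (WT), DIDO3ΔE16 and DIDO3ΔCT+HADIDO3. In DIDO3ΔE16 cells, exon 16 of Dido1, which encodes the C terminus of the DIDO3 protein, was flanked by LoxP sites and removed by a Cre driven from the Sox2 promoter. DIDO3ΔCT+HADIDO3 cells carry an earlier deletion of the same C terminus and express an HA-tagged DIDO3, so they are a reconstituted mutant line and not an untreated one. All cells were grown with leukemia inhibitory factor, either on mitomycin C-treated fibroblasts or on gelatin, and the labels do not say which sample had which. Of the 4 samples labelled WT, the second and the third share a library name and stand for a single measured library, called WT replicate 2-3 and counted as 1 sample. This left 3 libraries per genotype. The labels do not say that libraries came from separate cultures or clones, so p-values measure only the spread between these samples, which may be technical. In bulk RNA, fewer cells of a type and less RNA per cell cannot be told apart.

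An R-loop forms when a new RNA stays paired with its template strand and leaves the other DNA strand single. RNase H enzymes cut the RNA of such hybrids, helicases unwind them and topoisomerases relieve the supercoiling that favours them. Where a replication fork meets an R-loop, the fork can stall or break. Fanconi proteins then protect and repair the fork, homologous recombination copies lost sequence from the sister chromatid, and the ATR and ATM kinases signal to stop the cell cycle. Embryonic stem cells divide rapidly and rely on these pathways during replication.

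The measured unit was the end of a gene and not the whole gene. Each deposited feature was an annotated 3′ untranslated region with 2000 bp added downstream, with a level in each library in TPM, the transcript abundance scaled for length and library total. Features with identical coordinates were summed into a site. The 38 genes had 121 features at 84 sites of 2001 to 5831 bp on the GRCm38 (mm10) genome. Some sites were nearly all added sequence. The untranslated region was 1 bp at the main Brca2 site, a second Brca1 site and a shorter Top3b site. It was 2 bp at the main Ercc5 site. A single site was present for 13 genes, and 25 genes had from 2 to 6 sites. Each gene was counted by its main site, the site with the highest mean TPM over the 9 libraries. The main site was the most downstream site of the gene for 24 genes and lay upstream of another site for 14. It was 1 feature sharing no base with any other site for 11 genes, whereas it overlapped a site of a gene on the opposite strand for 12. Libraries were stranded, but the stated counting command set no strand option, so reads of opposite genes over shared bases may not be separated.

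The last 30 bases of the annotated transcript, just before the added 2000 bp, are shown for sites whose levels differed most between lines or whose several ends moved differently. Capitals mark AATAAA or ATTAAA, the polyadenylation signal hexamer and its commonest variant, searched on the transcript strand only. Sequences are those of GENCODE M21 on GRCm38.
Rnaseh2a main site, chr8:84956610-84956639, minus strand: tgatgaggccctgatcAATAAAtcaaagcc
Rnaseh2a upstream site, chr8:84957667-84957696, minus strand: tctaacccaggAATAAAagctgttcaagaa
Blm main site, chr7:80454993-80455022, minus strand: gaaatcccgaggggaacatgactgctgaag
Blm upstream site, chr7:80469249-80469278, minus strand: aagtaacaaaaAATAAAaaagtaaaaatcc
Fanca upstream site, chr8:123286189-123286218, minus strand: gcacaagtaagttaaaaggtaataattcat
Fancc upstream site, chr13:63330539-63330568, minus strand: gttttcacatcgtgcttggtagaagctctg
Fancl main site, chr11:26469095-26469124, plus strand: tggttaatgacagatacacttATTAAAact
Fancm main site, chr12:65132029-65132058, plus strand: gatccaaaatcacatattctatatctatgc
Mdc1 main site, chr17:35859641-35859670, plus strand: ttcacttcAATAAAaaagttgcttacttta
Rif1 downstream site, chr2:52122352-52122381, plus strand: gatatataATTAAAccatttgtaaatttca
Both Rnaseh2a ends held AATAAA, as did Mdc1 and the upstream Blm end, whereas the main Blm end held neither hexamer in this window. Among the 48 member sites whose 3′ end matched a transcript end, 37.5% held AATAAA and 20.8% held ATTAAA. Over all 14317 such sites the shares were 46.3% and 11.6%. No GENCODE transcript end matched the main sites of Atm, Brca2, Fanca, Fancc, Rad51c, Rad52, Rif1 or Top3b, so no sequence is shown for them.

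Depth, as mean coverage times length over all features, was 1.95 to 2.27 Gb in WT, 1.46 to 2.15 Gb in DIDO3ΔE16 and 2.15 to 2.61 Gb in DIDO3ΔCT+HADIDO3. The median coverage of the main sites was 24.0 to 27.4, 17.2 to 23.5 and 28.5 to 36.8 reads deep, in the same order. At the Dido1 locus, a site starting at chr2:180663936 held 4.78 to 4.90 TPM in WT, 81.7 to 96.1 TPM in DIDO3ΔE16 and 7.30 to 8.65 TPM in DIDO3ΔCT+HADIDO3, so the libraries labelled DIDO3ΔE16 stood apart. All 8 stem cell markers were above 0 in every group, with sums of 4652 to 5912, 6229 to 6701 and 4914 to 6820 TPM. The 10 fibroblast markers summed to 63.7 to 69.9 TPM in WT, with Lum and Dcn at 0, to 137 to 146 TPM in DIDO3ΔE16, with Lum at 0, and to 98.0 to 105 TPM in DIDO3ΔCT+HADIDO3, with Col3a1 at 0. In DIDO3ΔCT+HADIDO3 the sum was mostly Thy1 (54.4 TPM, 19.1 TPM in WT) and Pdgfrb (39.6 TPM, 5.16 TPM in WT), whereas Col1a1 and Col1a2 were at 1.14 and 0.239 TPM against 11.7 and 18.2 TPM in WT. The part of these differences in the results below was not tested. WT replicates 1 and 4 carried another run identifier family than WT replicate 2-3 and all mutant libraries.

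The 38 genes spanned a wide range of levels. Mean main-site levels ran from 0.336 TPM for Fancb to 660 TPM for H2afx, the gene of the histone variant whose phosphorylation marks DNA breaks, with a median of 40.9 TPM. A mean of at least 10 TPM was reached by 33 genes. Rnaseh2c alone was listed at 0 in some libraries and was not tested, so 37 genes entered each comparison. TPM is a level per length, but it is a level at 1 gene end, and a gene with several ends has more RNA than its main site shows.

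**Figure D1:**
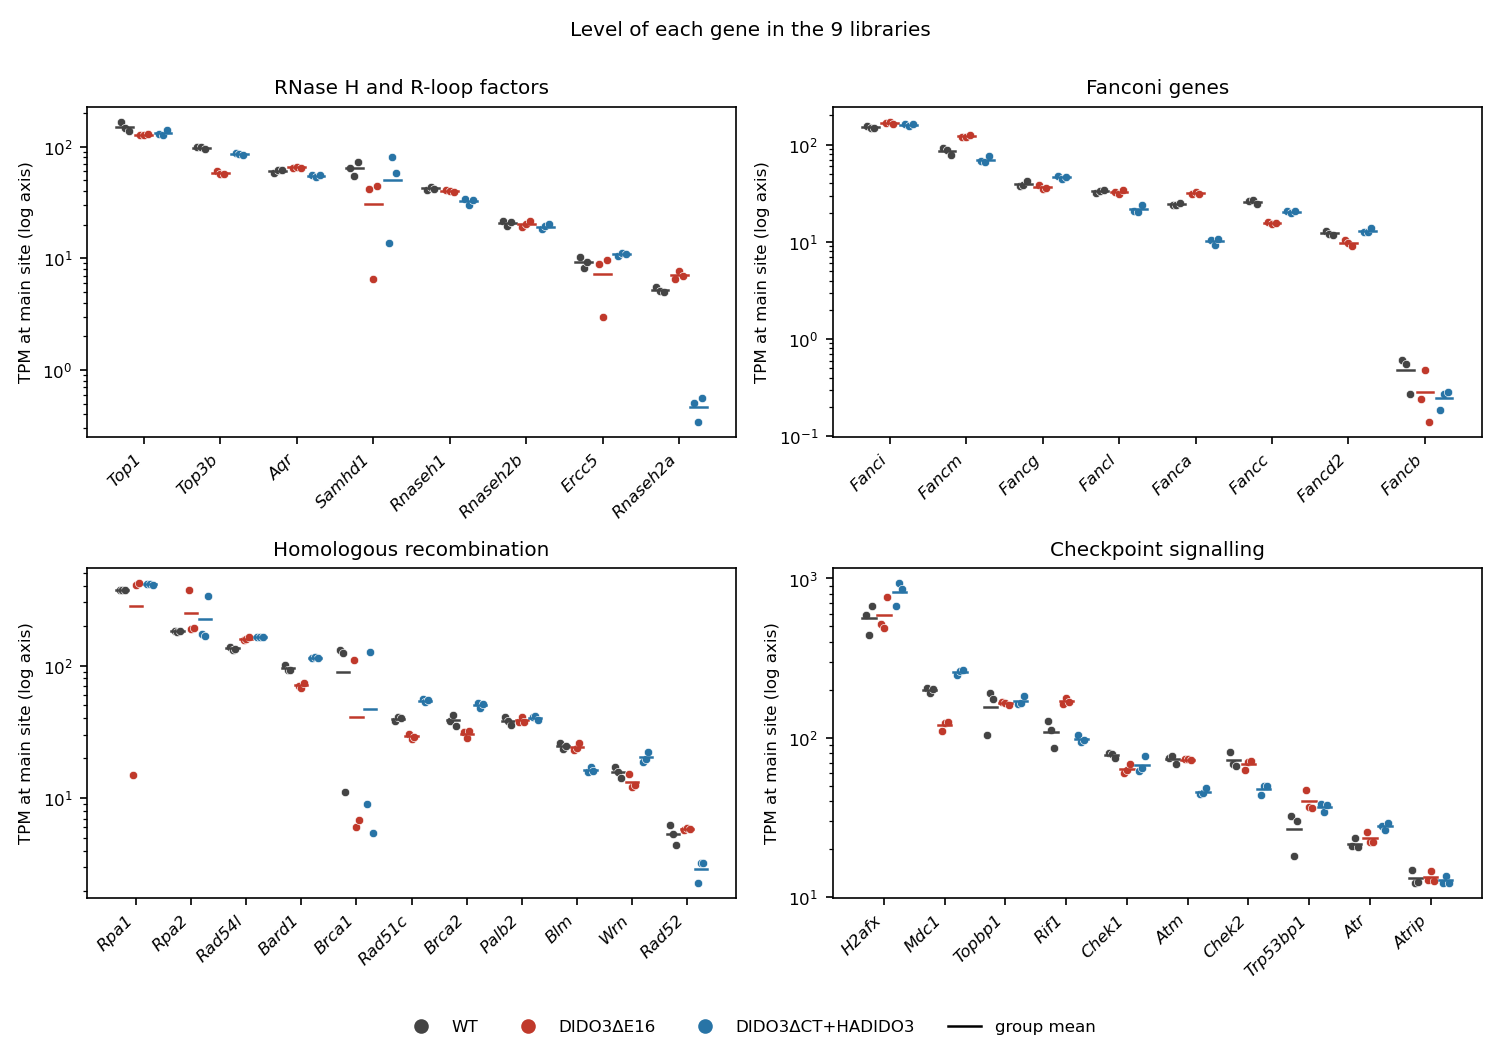
Main-site level (TPM, log axis) of 37 of the 38 genes in each of the 9 libraries, grouped by set, with 1 point per library coloured by genotype. Most genes have tight points, while Rnaseh2a stands out with DIDO3ΔCT+HADIDO3 libraries at 0.341 to 0.562 TPM against 5.04 to 7.73 TPM elsewhere, and Brca1, Rpa1 and Samhd1 have widely scattered points.

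Few genes differed from WT by a large amount at their main site. A site was called where limma gave a Benjamini-Hochberg adjusted p under 0.05, over all sites, and the log2 fold change was 0.7 or more in either direction. DIDO3ΔE16 against WT called 3 of 37 genes (8.11%), all lower (Top3b, Fancc and Mdc1), beside 15.1% of all 21063 sites tested and 16% of the main sites of all genes. DIDO3ΔCT+HADIDO3 against WT called 6 of 37 genes (16.2%), all lower (Rnaseh2a, Fanca, Fancl, Blm, Rad52 and Atm), beside 17.3% of all 20879 sites and 18.1% of main sites. The total shares of called genes were thus not above those over all sites. Split by direction, 4.94% of all sites were called lower and 10.2% higher in the first comparison, and 7.24% and 10.1% in the second. Because both comparisons use the same 3 WT libraries, they are not independent. DIDO3ΔE16 set directly against DIDO3ΔCT+HADIDO3 called 8 of 37 genes (21.6%), beside 27.4% of all 21172 sites and 27.7% of main sites. Higher in DIDO3ΔE16 were 5 genes, Rnaseh2a, Fanca, Fancm, Rad52 and Rif1, beside 13.9% of all sites, and lower were 3, Brca2, Rad51c and Mdc1, beside 13.4%.

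Smaller differences were more common. In DIDO3ΔE16 against WT an adjusted p under 0.05 of any size was reached by 14 of 37 genes, 5 higher and 9 lower. Beside them were 33.2% of all 21063 sites, 3341 higher and 3662 lower. In DIDO3ΔCT+HADIDO3 against WT an adjusted p under 0.05 was reached by 20 genes, 6 higher and 14 lower. Beside them were 38.4% of all 20879 sites, 3856 higher and 4170 lower. The median log2 fold change of the 37 genes was -0.10 and -0.21 in these comparisons, against -0.01 over all sites in each. The largest set median was that of the Fanconi genes in DIDO3ΔCT+HADIDO3, at -0.43, and the homologous recombination genes had -0.31 in DIDO3ΔE16 and 0.12 in DIDO3ΔCT+HADIDO3. In the direct comparison 20 genes reached an adjusted p under 0.05, 11 higher and 9 lower in DIDO3ΔE16, and the median was -0.02. Beside them were 49.2% of all 21172 sites, 5157 higher and 5260 lower. The median standard error of a gene's log2 fold change was 0.08, 0.07 and 0.07 in the 3 comparisons. Scaling shifted all sites by 0.10 (log2) in DIDO3ΔCT+HADIDO3 against WT and by less in the others, and without scaling Atm, Blm and Fancl were not called.

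**Figure D2:**
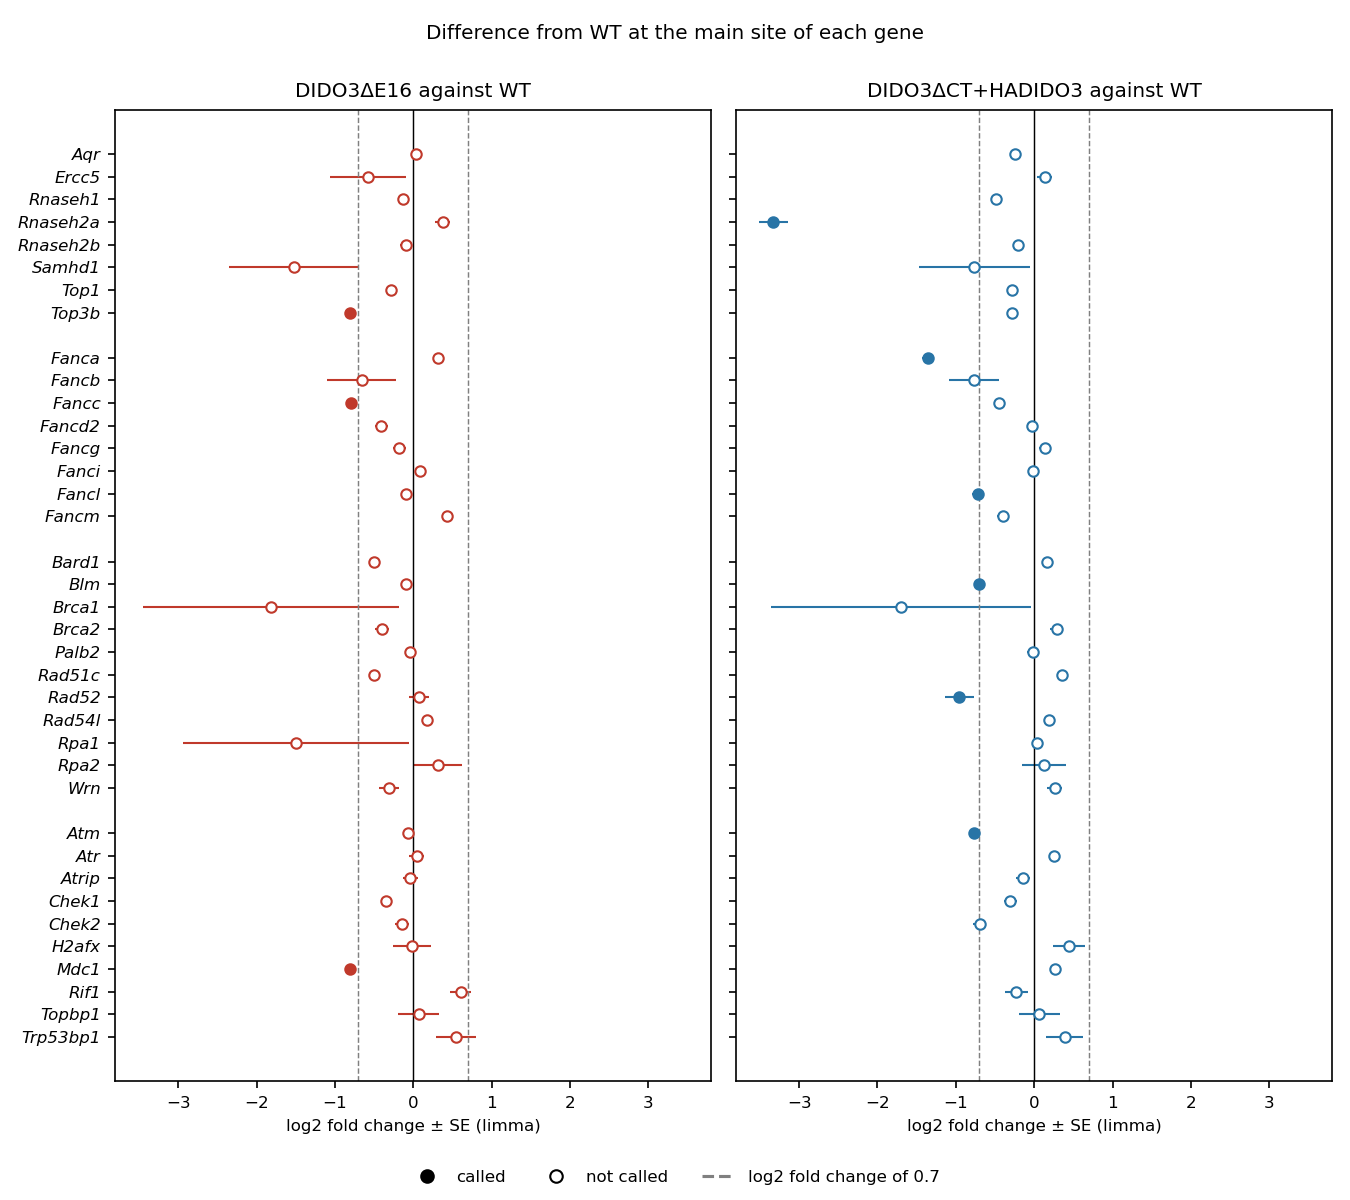
Log2 fold change at the main site of 37 genes, with bars of 1 standard error, for DIDO3ΔE16 against WT and DIDO3ΔCT+HADIDO3 against WT, filled where called and with dashed lines at 0.7 either way. Rnaseh2a lies at -3.33 in DIDO3ΔCT+HADIDO3, far from all other genes, and Brca1, Rpa1 and Samhd1 have long bars.

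Among the RNase H and R-loop factors, 1 of 8 tested genes was called lower in DIDO3ΔE16 (Top3b, 12.5% beside 4.94% of all sites) and 1 of 8 in DIDO3ΔCT+HADIDO3 (Rnaseh2a, 12.5% beside 7.24%). At an adjusted p under 0.05 of any size, 2 of the 8 were lower in DIDO3ΔE16, beside 3662 of all 21063 sites. In DIDO3ΔCT+HADIDO3, 5 of the 8 were lower, beside 4170 of all 20879 sites. Top3b and Top1 were among them in both. Rnaseh2a encodes the catalytic subunit of RNase H2, which removes RNA from hybrids and single ribonucleotides from DNA. Its main site (chr8:84954610-84957722) held 5.48, 5.06 and 5.04 TPM in WT, given here and below in the order of replicates 1, 2-3 and 4. It held 6.59, 7.73 and 6.92 TPM in DIDO3ΔE16 and 0.504, 0.341 and 0.562 TPM in DIDO3ΔCT+HADIDO3. All 3 DIDO3ΔCT+HADIDO3 libraries were thus far below the other 6, and the 3 groups did not overlap. Mean coverage at this site was low, at 2.86 to 4.43 in the other 6 libraries. It was 0.339, 0.218 and 0.435 in those of DIDO3ΔCT+HADIDO3, near the detection limit. The level was 10.03-fold lower than in WT (log2 fold change -3.33, SE 0.19, limma adjusted p = 0.000326) and 12.9-fold lower than in DIDO3ΔE16, whose own difference from WT was 0.38 (adjusted p = 0.0305), under the fold threshold. An upstream site (chr8:84955667-84957852) overlaps the main one and held 0.877 TPM in WT, 2.32 TPM in DIDO3ΔE16 and 1.44 TPM in DIDO3ΔCT+HADIDO3. Summed over both ends, the log2 fold change of DIDO3ΔCT+HADIDO3 against WT was -1.71 (adjusted p = 0.00163), still called but smaller. The main site also shares 1495 bp with Rtbdn on the opposite strand, which held 36.4 TPM in WT, 29.8 TPM in DIDO3ΔE16 and 11.6 TPM in DIDO3ΔCT+HADIDO3, and its part in the Rnaseh2a value was not tested.

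Of the other subunits of RNase H2, Rnaseh2b was tested and not called, and Rnaseh2c was not tested. Rnaseh2b, whose product helps to hold the complex on chromatin, had 21.5, 19.3 and 21.2 TPM in WT, 19.04, 20.2 and 21.3 TPM in DIDO3ΔE16 and 18.2, 19.3 and 20.2 TPM in DIDO3ΔCT+HADIDO3. The 3 groups overlapped, and the log2 fold changes against WT were -0.10 (SE 0.07) and -0.21 (SE 0.06), neither with an adjusted p under 0.05. Rnaseh2c, the third subunit, was listed at 0 in all 3 WT libraries. It held 0, 5.28 and 0 TPM in DIDO3ΔE16 and 0, 1.10 and 1.07 TPM in DIDO3ΔCT+HADIDO3. Its only site (chr19:5602851-5604959) lay 4060 bp from the annotated gene end and matched no annotated transcript end. A level of 0 there need not mean that the gene was silent. On the opposite strand the site shares bases with 2 sites of the acetyltransferase gene Kat5. One, sharing 567 bp, held 136, 69.7 and 166 TPM in WT, DIDO3ΔE16 and DIDO3ΔCT+HADIDO3. The other, sharing 1838 bp, held 1.59 TPM in WT, 79.5 TPM in DIDO3ΔE16 and 1.39 TPM in DIDO3ΔCT+HADIDO3. Its log2 fold change of DIDO3ΔE16 against WT was 5.49 (limma adjusted p = 3.4e-05). The part of both Kat5 sites in the Rnaseh2c values was not tested.

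Rnaseh1, the other mammalian RNase H, held 40.8, 43.8 and 42.0 TPM in WT, 41.0, 39.9 and 39.5 TPM in DIDO3ΔE16 and 33.7, 29.99 and 33.4 TPM in DIDO3ΔCT+HADIDO3 at its main site (chr12:28659080-28661591). The DIDO3ΔCT+HADIDO3 libraries were the lowest 3 of the 9 and did not overlap the others. The log2 fold change against WT was -0.49 (SE 0.07, adjusted p = 0.00426), short of the fold threshold, and that of DIDO3ΔE16 was -0.13 (adjusted p = 0.0992).

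Top3b encodes a topoisomerase that acts on both DNA and RNA. Its main site (chr16:16882807-16887444), 7546 bp upstream of the annotated gene end, held 99.8, 98.7 and 94.3 TPM in WT, 61.0, 56.4 and 57.3 TPM in DIDO3ΔE16 and 87.8, 86.0 and 84.8 TPM in DIDO3ΔCT+HADIDO3. The DIDO3ΔE16 libraries were the lowest and no groups overlapped. The fall in DIDO3ΔE16 was 1.75-fold (log2 fold change -0.81, SE 0.05, adjusted p = 0.000432), and -0.70 and not called with quantile normalization, beside -0.28 (adjusted p = 0.0047) in DIDO3ΔCT+HADIDO3. A shorter site that overlaps its 3′ part (chr16:16885925-16887925) held 80.2 to 85.6 TPM in WT and 74.9 to 77.5 TPM in DIDO3ΔCT+HADIDO3. In DIDO3ΔE16 this shorter site held 0.551, 52.8 and 0.520 TPM, so 2 of the 3 libraries lay near 0. With all Top3b ends summed, DIDO3ΔE16 lay -1.36 (log2) from WT (adjusted p = 0.0131). The most downstream Top3b end (chr16:16892897-16894986) had means of 6.28 TPM in WT and 3.64 TPM in DIDO3ΔE16. It was not called (log2 fold change -0.90, adjusted p = 0.07).

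The remaining 4 R-loop factors were not called at their main site. Top1, the main topoisomerase of transcribed chromatin, held 138 to 166 TPM in WT, 126 to 130 TPM in DIDO3ΔE16 and 128 to 140 TPM in DIDO3ΔCT+HADIDO3. Its log2 fold changes were -0.29 (adjusted p = 0.0204) and -0.28 (adjusted p = 0.0257). Aqr, a helicase of the spliceosome that limits R-loops, held 58.3 to 61.8 TPM in WT and differed by -0.24 (adjusted p = 0.0155) in DIDO3ΔCT+HADIDO3 and by 0.04 in DIDO3ΔE16. The main Aqr site was an internal end, 10956 bp before the gene end. Ercc5 encodes the XPG endonuclease and had a mean of 9.21 TPM in WT, and Samhd1, a dNTP hydrolase that also acts at stalled forks, had 63.6 TPM. Neither had an adjusted p under 0.05 in any comparison, and both had a DIDO3ΔE16 library far from the other two.

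Of the 8 Fanconi genes, 1 was called lower in DIDO3ΔE16 (Fancc, 12.5% beside 4.94% of all sites). In DIDO3ΔCT+HADIDO3, 2 were called lower (Fanca and Fancl, 25% beside 7.24% of all sites). No Fanconi gene was called higher than WT, though Fanca and Fancm had smaller positive differences in DIDO3ΔE16. Fanca, Fancb, Fancc, Fancg and Fancl encode subunits of the core complex, with Fancl its ubiquitin ligase, whereas Fancd2 and Fanci form the pair that the complex ubiquitinates. Fancm is the translocase that brings the complex to DNA.

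Fanca gave the largest difference of the set. Its main site (chr8:123266244-123268441) held 23.9, 24.1 and 24.997 TPM in WT, 31.2, 32.5 and 31.2 TPM in DIDO3ΔE16 and 10.4, 9.38 and 10.7 TPM in DIDO3ΔCT+HADIDO3. The groups did not overlap, with DIDO3ΔE16 highest and DIDO3ΔCT+HADIDO3 lowest. It fell 2.56-fold in DIDO3ΔCT+HADIDO3 (log2 fold change -1.36, SE 0.07, adjusted p = 0.000262), and the 2 mutant lines differed by 1.65 (SE 0.06, adjusted p = 5.59e-05). DIDO3ΔE16 exceeded WT by 0.31 (adjusted p = 0.007), under the fold threshold. The main site shares 738 bp with an end of Zfp276 on the opposite strand, which held 48.8 TPM in WT and 2.77 TPM in DIDO3ΔCT+HADIDO3, and 401 bp with another Zfp276 end, which held 8.97 and 54.9 TPM. An upstream Fanca site, 17889 bp before the gene end and annotated as a retained intron, held 14.9, 13.7 and 12.6 TPM in WT, 11.7, 15.1 and 12.5 TPM in DIDO3ΔE16 and 3.44, 3.93 and 5.43 TPM in DIDO3ΔCT+HADIDO3. It too fell in DIDO3ΔCT+HADIDO3 (log2 fold change -1.79, SE 0.17, adjusted p = 0.00138). The third Fanca end, starting at chr8:123310283, did not follow, with means of 4.75 TPM in WT, 3.63 TPM in DIDO3ΔE16 and 5.83 TPM in DIDO3ΔCT+HADIDO3. It was not called, at 0.17 (adjusted p = 0.46) in DIDO3ΔCT+HADIDO3 against WT and -0.63 (adjusted p = 0.0281) between the lines.

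Fancc held 26.5, 26.9 and 24.6 TPM in WT at its main site (chr13:63309537-63312665), 26494 bp before the annotated gene end. It held 15.98, 15.3 and 15.5 TPM in DIDO3ΔE16 and 20.5, 19.7 and 20.7 TPM in DIDO3ΔCT+HADIDO3. The groups did not overlap, and both lines lay below WT. The log2 fold change was -0.79 in DIDO3ΔE16 (SE 0.05, adjusted p = 0.000711) and -0.45 in DIDO3ΔCT+HADIDO3 (adjusted p = 0.00239), the latter not called. With overlapping sites merged, the DIDO3ΔE16 value was -0.68 and not called. At an upstream end, chr13:63328539-63331836, the order of the lines was the other way round. There the levels were 11.4, 9.60 and 8.78 TPM in WT, 5.48, 5.43 and 5.02 TPM in DIDO3ΔE16 and 3.36, 3.17 and 2.81 TPM in DIDO3ΔCT+HADIDO3, with log2 fold changes of -0.94 (SE 0.11, adjusted p = 0.00309) and -1.74 (SE 0.13, adjusted p = 0.000754). The most downstream Fancc site (chr13:63302709-63312665) overlaps the main one. Its means were 0.403, 0.632 and 0.574 TPM in WT, DIDO3ΔE16 and DIDO3ΔCT+HADIDO3, and it was not called.

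Fancl held 32.2, 33.2 and 33.8 TPM in WT at its main site (chr11:26468353-26471124), 32.6, 31.1 and 33.8 TPM in DIDO3ΔE16 and 20.6, 20.2 and 24.2 TPM in DIDO3ΔCT+HADIDO3. The WT and DIDO3ΔE16 libraries overlapped and the DIDO3ΔCT+HADIDO3 libraries lay below both. The log2 fold change was -0.72 (SE 0.08, adjusted p = 0.00181). This was close to the threshold, and leaving out WT replicate 4 or DIDO3ΔCT+HADIDO3 replicate 1 or 2 lost the call. Summed over its 2 ends, Fancl differed by -0.26 (adjusted p = 0.342). The downstream end in that sum held 25.1, 27.4 and 2.71 TPM in WT, so WT replicate 4 stood apart. In DIDO3ΔCT+HADIDO3 the downstream end held 22.4, 22.4 and 23.2 TPM. The main site shares 1723 bp with Vrk2 on the opposite strand, which held means of 14.9, 15.2 and 3.08 TPM in WT, DIDO3ΔE16 and DIDO3ΔCT+HADIDO3, and its part in the Fancl value was not tested.

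Fancm was called between the 2 mutant lines and in neither against WT. The main site (chr12:65130450-65134058) held 93.4, 87.5 and 79.1 TPM in WT, 121, 119 and 125 TPM in DIDO3ΔE16 and 67.9, 66.8 and 76.6 TPM in DIDO3ΔCT+HADIDO3. WT lay between the lines with no overlap. The mutant lines differed by 0.81 (SE 0.05, adjusted p = 0.000204), made up of 0.43 above WT (adjusted p = 0.00458) and -0.40 below it (adjusted p = 0.0099).

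Among the other Fanconi genes, Fancd2 had a mean of 12.3 TPM in WT and 9.69 TPM in DIDO3ΔE16 (log2 fold change -0.41, adjusted p = 0.018). That Fancd2 site was annotated as a retained intron, 58298 bp before the gene end. Fanci, the partner of Fancd2, had 151, 168 and 161 TPM in WT, DIDO3ΔE16 and DIDO3ΔCT+HADIDO3, with no adjusted p under 0.05. Fancg had 39.4, 36.4 and 46.5 TPM and reached an adjusted p under 0.05 only between the mutant lines (-0.33, adjusted p = 0.00644). Fancb was near the detection limit, at 0.139 to 0.605 TPM over the 9 libraries.

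No homologous recombination gene was called in DIDO3ΔE16 against WT, beside 15.1% of all sites. Blm and Rad52, 2 of 11 genes (18.2%), were called lower in DIDO3ΔCT+HADIDO3, beside 7.24% of all sites. Rad52, which anneals complementary single strands, held 6.24, 5.32 and 4.46 TPM in WT at its main site (chr6:119921112-119923308), 5.75, 5.90 and 5.82 TPM in DIDO3ΔE16 and 2.28, 3.25 and 3.23 TPM in DIDO3ΔCT+HADIDO3. The lowest WT library lay above the highest DIDO3ΔCT+HADIDO3 library. The log2 fold change was -0.95 (SE 0.19, adjusted p = 0.014) against WT, and DIDO3ΔE16 exceeded DIDO3ΔCT+HADIDO3 by 1.01 (SE 0.15, adjusted p = 0.004). With the run identifier family as a covariate, the WT comparison of Rad52 gave -0.96 and was not called. That fit leaves WT replicate 2-3 as the sole WT library in the family of the mutant libraries. The site shares 1340 bp with Wnk1 on the opposite strand, which held 16.8 TPM in WT and 23.6 TPM in DIDO3ΔCT+HADIDO3.

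Blm encodes the Bloom helicase, which dissolves recombination intermediates. Its main site (chr7:80452993-80455258) held 26.1, 23.5 and 24.7 TPM in WT, 23.1, 23.9 and 25.8 TPM in DIDO3ΔE16 and 15.9, 17.2 and 15.9 TPM in DIDO3ΔCT+HADIDO3. Only the last group stood apart from WT, with a log2 fold change of -0.70 (SE 0.06, adjusted p = 0.00117) that lay at the threshold. Leaving out WT replicate 1 or 4, or DIDO3ΔCT+HADIDO3 replicate 1 or 3, lost the call. The upstream Blm site, described with the genes of several ends, went the opposite way.

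Rad51c and Brca2, which both act in homologous recombination, differed between the mutant lines. Rad51c held 38.1, 40.8 and 40.0 TPM in WT at its only site (chr11:87375607-87379385), 30.6, 28.2 and 28.9 TPM in DIDO3ΔE16 and 55.6, 53.1 and 54.8 TPM in DIDO3ΔCT+HADIDO3. No groups overlapped, and WT lay in the middle. Against WT the log2 fold changes were -0.50 (adjusted p = 0.0032) and 0.36 (adjusted p = 0.00505), neither called, and the lines differed by -0.88 (SE 0.05, adjusted p = 0.000176). With each deposited feature tested on its own, the Rad51c value was -0.58 (adjusted p = 0.182). Brca2, the breast cancer susceptibility gene that acts with Palb2, had the same order. Its main site (chr5:150537137-150539137) was an internal end 33192 bp before the gene end, and all but 1 bp of it was added sequence. It held 38.2, 42.4 and 35.2 TPM in WT, 31.6, 28.2 and 32.1 TPM in DIDO3ΔE16 and 52.3, 48.1 and 51.1 TPM in DIDO3ΔCT+HADIDO3. The groups did not overlap, and the lines differed by -0.70 (SE 0.07, adjusted p = 0.000947), at the threshold, a call lost on leaving out DIDO3ΔCT+HADIDO3 replicate 1 or DIDO3ΔE16 replicate 2. Bard1, the ring partner of BRCA1, had means of 95.9, 71.0 and 115 TPM and differed by -0.50 in DIDO3ΔE16 (adjusted p = 0.00167) and by -0.68 between the lines (adjusted p = 0.000175), just short of the threshold. Palb2, which joins BRCA1 to BRCA2, had 38.2, 38.7 and 40.3 TPM and no adjusted p under 0.05. That Palb2 site was annotated as a retained intron, 18320 bp before the gene end.

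Rad54l, a DNA-dependent motor protein, had 135, 160 and 164 TPM, a small difference of 0.18 in each line (adjusted p = 0.0107 and 0.0101). Wrn, the Werner helicase, had 15.7, 13.3 and 20.3 TPM and differed between the lines by -0.59 (adjusted p = 0.0107). Rpa1 and Rpa2 encode subunits of the complex that coats single-stranded DNA, and Brca1 encodes the recombination mediator and ubiquitin ligase. These 3 genes had no adjusted p under 0.05, with standard errors of 0.28 or more except for Rpa1 in DIDO3ΔCT+HADIDO3 against WT, and their single libraries are given with the genes of wide spread.

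Among the 10 checkpoint genes, Mdc1 was called lower in DIDO3ΔE16 (10% beside 4.94% of all sites). Atm was called lower in DIDO3ΔCT+HADIDO3 (10% beside 7.24% of all sites). Mdc1 encodes the scaffold that binds phosphorylated H2AX at breaks. Its only site (chr17:35857631-35861670), a single feature sharing no base with another site, held 207, 192 and 204 TPM in WT, 111, 125 and 126 TPM in DIDO3ΔE16 and 249, 262 and 266 TPM in DIDO3ΔCT+HADIDO3. No groups overlapped, and the DIDO3ΔE16 libraries were far below the others. The fall in DIDO3ΔE16 was 1.74-fold (log2 fold change -0.80, SE 0.06, adjusted p = 0.000756). DIDO3ΔCT+HADIDO3 lay 0.26 above WT (adjusted p = 0.0059, not called), and the lines differed by -1.09 (SE 0.05, adjusted p = 8.75e-05). With the run identifier family as a covariate, the DIDO3ΔE16 value was -0.74 and still called.

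Atm, the kinase that responds to double-strand breaks, held 75.3, 76.6 and 68.2 TPM in WT at its main site (chr9:53435122-53439745), 73.7, 73.5 and 72.4 TPM in DIDO3ΔE16 and 44.8, 44.96 and 48.6 TPM in DIDO3ΔCT+HADIDO3. WT and DIDO3ΔE16 overlapped, and DIDO3ΔCT+HADIDO3 lay below both. The log2 fold change against WT was -0.77 (SE 0.05, adjusted p = 0.000539), a 1.71-fold fall. The lines differed by 0.69 (adjusted p = 0.000115), just short of the threshold. Chek2, the kinase downstream of ATM, had means of 72.3, 68.5 and 47.8 TPM, and its log2 fold change of -0.70 in DIDO3ΔCT+HADIDO3 (SE 0.09, adjusted p = 0.00299) fell just inside 0.7 and was not called, although leaving out WT replicate 2-3 or 4, or DIDO3ΔCT+HADIDO3 replicate 2 or 3, brought it past.

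No gene of the ATR branch was called at its main site. Chek1, the kinase that ATR activates, held 80.1, 78.9 and 74.8 TPM in WT at its main site (chr9:36706482-36710334), 60.3, 63.1 and 68.4 TPM in DIDO3ΔE16 and 61.9, 65.2 and 77.3 TPM in DIDO3ΔCT+HADIDO3. All DIDO3ΔE16 libraries lay below WT, while DIDO3ΔCT+HADIDO3 replicate 3 lay among the WT libraries. The log2 fold changes were -0.35 (SE 0.05, adjusted p = 0.00594) and -0.30 (SE 0.08, adjusted p = 0.0315), neither called. Atr had 21.8, 23.5 and 27.9 TPM, and differed by 0.26 in DIDO3ΔCT+HADIDO3 (adjusted p = 0.0377). That Atr site was annotated as a retained intron, 88243 bp before the gene end. The most downstream Atr end, of a protein-coding transcript, had means of 0.125, 0.0927 and 0.423 TPM and was not called. Atrip, the partner of Atr, had 13.2, 13.4 and 12.8 TPM with no adjusted p under 0.05, at a site 14646 bp before the gene end. Topbp1, the activator of ATR, had 156, 166 and 170 TPM, and H2afx had 567, 589 and 824 TPM, with standard errors of 0.20 or more against WT and no adjusted p under 0.05.

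Trp53bp1 encodes 53BP1, which limits the resection of breaks. Its main site (chr2:121192835-121198419) held 32.6, 18.2 and 30.05 TPM in WT, 47.4, 36.9 and 36.1 TPM in DIDO3ΔE16 and 38.3, 34.2 and 37.98 TPM in DIDO3ΔCT+HADIDO3. Every mutant library was above every WT library, but WT replicate 2-3 lay well below the other WT libraries. The log2 fold changes were 0.54 (SE 0.26, adjusted p = 0.176) and 0.39 (SE 0.24, adjusted p = 0.258). With the run identifier family as a covariate, which leaves WT replicate 2-3 as the sole WT library of its family, Trp53bp1 was called higher in both lines. The site shares 2003 bp and 1672 bp with ends of Tubgcp4 on the opposite strand.

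Several genes had ends that moved differently, so that the main site did not speak for the gene. Rif1, which works with 53BP1 and times replication, had 2 overlapping ends. The more abundant end (chr2:52120419-52122959) held 127, 113 and 86.2 TPM in WT, 164, 179 and 169 TPM in DIDO3ΔE16 and 104, 94.5 and 96.7 TPM in DIDO3ΔCT+HADIDO3. The DIDO3ΔE16 libraries were the highest 3, with a log2 fold change of 0.60 against WT (SE 0.14, adjusted p = 0.0247), not called, and of 0.81 against the other line (SE 0.06, adjusted p = 0.000304). The downstream end (chr2:52121204-52124381), whose last bases hold ATTAAA, held 88.0, 75.5 and 81.2 TPM in WT, 54.5, 45.01 and 49.1 TPM in DIDO3ΔE16 and 33.4, 39.4 and 53.9 TPM in DIDO3ΔCT+HADIDO3. It fell in both lines, by -0.78 (SE 0.09, adjusted p = 0.00315) and -1.08 (SE 0.17, adjusted p = 0.00686). Both calls were lost with the run identifier family as a covariate, which leaves WT replicate 2-3 as the sole WT library of its family. The DIDO3ΔE16 call was also lost with quantile normalization. The share of Rif1 TPM at the more abundant end was 56.8% ± 4.63 (SD, n = 3) in WT libraries, 77.5% ± 2.42 in those of DIDO3ΔE16 and 70.2% ± 5.76 in those of DIDO3ΔCT+HADIDO3. With both ends summed, Rif1 differed from WT by only 0.14 in DIDO3ΔE16 (adjusted p = 0.26).

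At Blm, the upstream end (chr7:80467249-80469577), annotated as a retained intron 14516 bp before the gene end, held 14.2, 10.9 and 12.7 TPM in WT, 9.58, 9.74 and 10.1 TPM in DIDO3ΔE16 and 23.4, 24.6 and 30.1 TPM in DIDO3ΔCT+HADIDO3. It rose in DIDO3ΔCT+HADIDO3 (log2 fold change 0.94, SE 0.13, adjusted p = 0.00455), the line in which the main end fell. The main end took 66.4% ± 1.87 (SD, n = 3) of Blm TPM in WT, 71.2% ± 0.608 of it in DIDO3ΔE16 and just 38.7% ± 3.61 in DIDO3ΔCT+HADIDO3. Summed over the gene, Blm differed from WT by 0.10 (adjusted p = 0.356). For Rnaseh2a the share at the main end was 86.4% ± 8.47 in WT, 76.1% ± 10.9 in DIDO3ΔE16 but 24.8% ± 6.17 in DIDO3ΔCT+HADIDO3, but there the sum of both ends was still lower in DIDO3ΔCT+HADIDO3. With all TPM of a gene summed, 3 genes were called in each line against WT and 8 between the lines. The calls that this sum lost were Blm, Fancl and Rad52 against WT, and Brca2, Fancm and Rif1 between the lines.

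**Figure D3:**
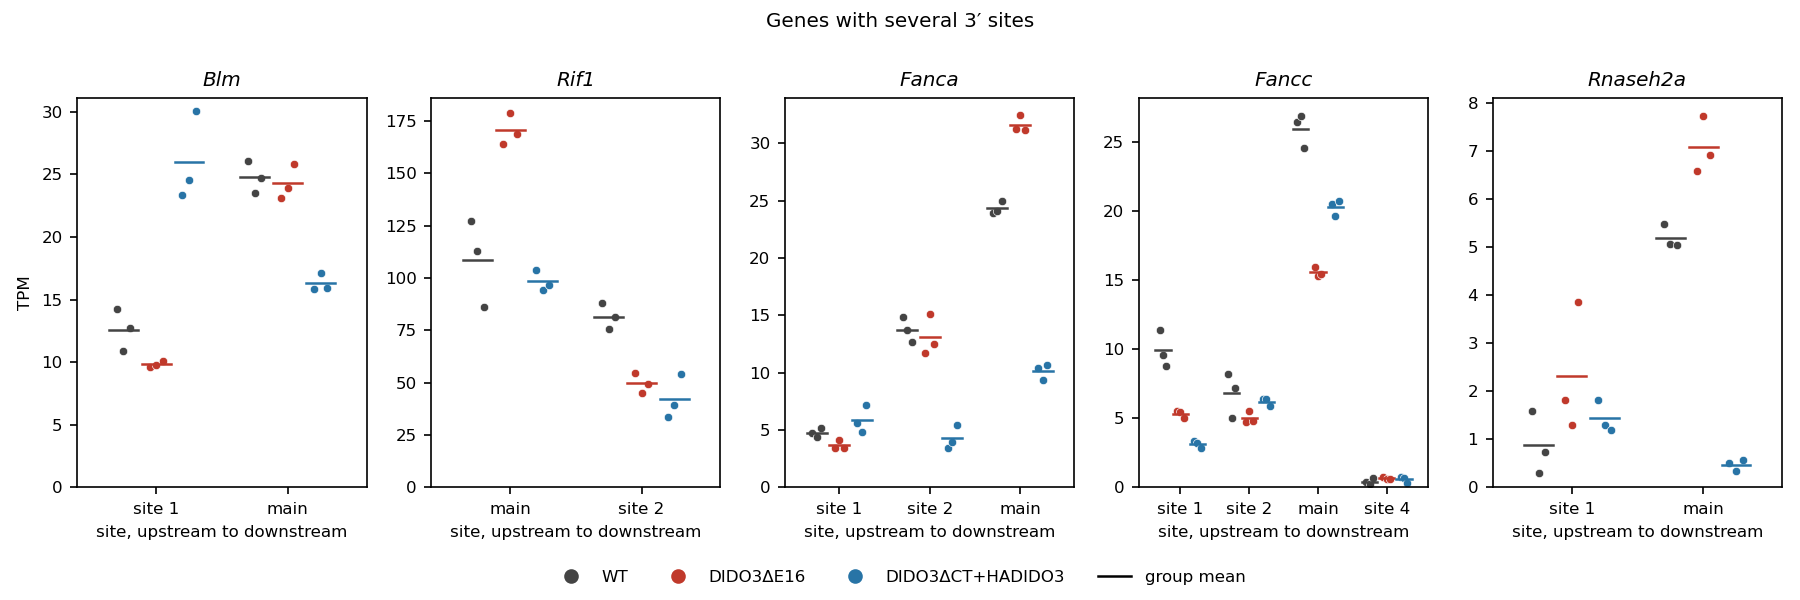
Level (TPM) at each 3′ site of Blm, Rif1, Fanca, Fancc and Rnaseh2a, ordered from upstream to downstream in each panel, with 1 point per library coloured by genotype and a bar at the group mean. The DIDO3ΔCT+HADIDO3 libraries lie above WT at the upstream Blm site and below it at the main Blm site, and at the downstream Rif1 site both mutant lines lie below WT.

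A few minor ends differed between the mutant lines alone. A Samhd1 end starting at chr2:157117564 held 5.15, 2.88 and 2.84 TPM in WT, 2.76, 2.17 and 2.50 TPM in DIDO3ΔE16 and 6.46, 5.35 and 6.38 TPM in DIDO3ΔCT+HADIDO3, a difference of -1.24 (SE 0.14, adjusted p = 0.00144). A Top1 end starting at chr2:160646944 held 4.06, 4.29 and 3.32 TPM in DIDO3ΔE16 and 1.86, 2.09 and 2.23 TPM in DIDO3ΔCT+HADIDO3, a difference of 0.90 (SE 0.14, adjusted p = 0.00471). An Ercc5 end starting at chr1:44181083 held 0.410 to 0.656 TPM in DIDO3ΔE16 and 0.866 to 1.33 TPM in DIDO3ΔCT+HADIDO3, a difference of -0.84 (SE 0.24, adjusted p = 0.0373). Leaving out any single library other than DIDO3ΔCT+HADIDO3 replicate 1 lost this Ercc5 call, at -0.67 to -0.94. By group means, each of these ends lay far below the main site of its gene.

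In 5 of the 37 tested genes, or 13.5%, the highest library of a genotype was at least 3-fold above its lowest at the main site: Brca1, Ercc5, Fancb, Rpa1 and Samhd1. The share was 21.6% over the main sites of all genes with TPM above 0 in every library. All 5 genes were among the 26 whose main site had several features or shared bases with another site, whereas 0 of the 11 genes with a main site of 1 feature and no shared base reached 3-fold. Over all genes the shares of those kinds of main site were 31.0% and 8.06%. Brca1 held 131, 124 and 11.1 TPM in WT, 111, 6.04 and 6.84 TPM in DIDO3ΔE16 and 9.04, 127 and 5.48 TPM in DIDO3ΔCT+HADIDO3. Libraries of 111 TPM or more and libraries of 11.1 TPM or less thus occurred in all 3 genotypes, and the log2 fold changes had standard errors of 1.63 to 1.78. A second Brca1 end, starting at chr11:101521325 and all but 1 bp added sequence, had a narrow range of 11.6 to 15.8 TPM over the 9 libraries. Rpa1 held 14.98 TPM in DIDO3ΔE16 replicate 1, at a mean coverage of 6.51, and 369 to 420 TPM in the other 8 libraries. Rpa2 held 166 to 191 TPM in 7 libraries, but 375 TPM in DIDO3ΔE16 replicate 1 and 335 TPM in DIDO3ΔCT+HADIDO3 replicate 3. Samhd1 held 54.0 to 72.1 TPM in WT, 41.4, 6.49 and 44.2 TPM in DIDO3ΔE16 and 13.7, 79.8 and 57.9 TPM in DIDO3ΔCT+HADIDO3. None of these genes had an adjusted p under 0.05 at the main site in any comparison. Where no library stood apart, the error was small, as for Rpa1 in DIDO3ΔCT+HADIDO3 against WT (log2 fold change 0.04, SE 0.04).

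**Figure D4:**
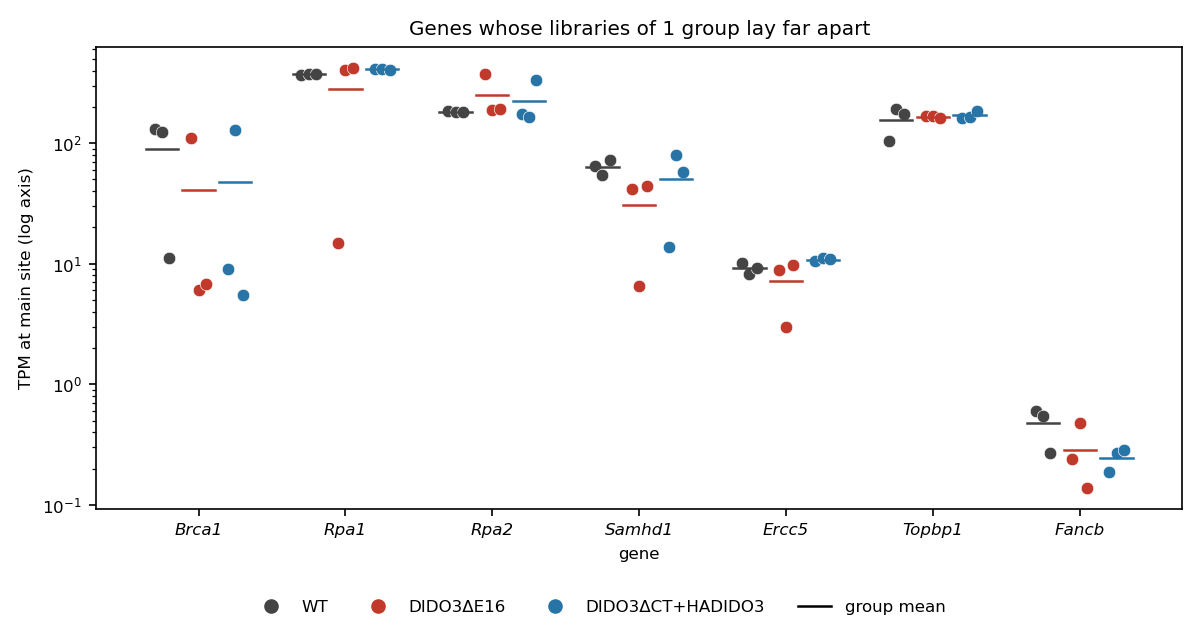
Main-site level (TPM, log axis) of 7 genes whose libraries of 1 genotype lay far apart, with 1 point per library coloured by genotype and a bar at the group mean. Brca1 has high and low libraries in all 3 genotypes, whereas Rpa1 and Ercc5 each have a single low DIDO3ΔE16 library.

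Another 67 genes of the same pathways, also chosen by name, were counted by their main sites. In DIDO3ΔE16 against WT 6 of 65 tested were called, 3 higher and 3 lower, in DIDO3ΔCT+HADIDO3 against WT 3 of 65, 1 higher and 2 lower, and between the lines 9 of 66, 4 higher and 5 lower. The total shares were 9.23%, 4.62% and 13.6%, below the 15.1%, 17.3% and 27.4% over all sites. Exo1, the exonuclease that resects broken ends, was called in every comparison, with means of 34.9, 89.9 and 12.3 TPM in WT, DIDO3ΔE16 and DIDO3ΔCT+HADIDO3 and log2 fold changes of 1.302 (adjusted p = 0.000102), -1.60 (adjusted p = 0.000135) and 2.88 between the lines (adjusted p = 1.27e-05). Tipin, of the fork protection complex, rose in both lines, from 9.67 TPM to 72.1 TPM (2.84, adjusted p = 0.000308) and 53.3 TPM (2.36, adjusted p = 0.000501), at a site that overlaps a gene on the opposite strand. Rad51b, also of homologous recombination, fell from 9.32 to 3.58 TPM in DIDO3ΔE16 (-1.43, adjusted p = 0.00216). Brip1, a helicase that binds BRCA1, fell from 13.3 to 6.73 TPM in DIDO3ΔCT+HADIDO3 (-1.07, adjusted p = 0.000635), and Ercc4, of the XPF endonuclease, was 1.90 higher in DIDO3ΔE16 than in DIDO3ΔCT+HADIDO3 (adjusted p = 2.77e-05).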

How the data were processed

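RNA from mESC was sequenced in paired-end runs. Per the study's methods and the labels, the authors aligned reads to mm10 with BWA 0.7.15, marked duplicates with Picard and ran StringTie 1.3.3 on 3′ untranslated regions extended by 2000 bp. The deposited values are TPM per feature, 43031 features in 9 libraries. Read counts are not used here, so limma replaced the study's count-based edgeR test. Features with identical coordinates were summed to 28706 sites. GENCODE M21 (GRCm38, the build of the files) named 42255 features by position and strand. Sites with TPM above 0 in every library of a comparison were scaled between libraries by the mean log2 ratio left after trimming 30% at each end, and tested as log2(TPM + 0.1) with limma 3.58.1 (R 4.3.3, 2-sided, trend and robust), with Benjamini-Hochberg adjustment over all sites. A fold change is on this scale and understates that of low sites. Calls needed an adjusted p under 0.05 and at least 0.7. Other steps used Python 3.11.15.

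Genes and lists were chosen with earlier results of these data known. Named were all genes called at the main site, the RNase H genes, Chek1 and Trp53bp1, other ends called whose mean reached 1 TPM in a compared group, and at most 3 pathway genes per comparison by size of change, with values for the remaining genes. Brca1, Rpa1, Rpa2 and Samhd1 libraries, the shorter Top3b end, the third Fanca end and the second Brca1 end were singled out after their values were seen. On data simulated for DIDO3ΔE16 against WT (21063 sites, 200 changed, 5 sets), the test called 43.4% of log2 changes of 1 and 64.2% of changes of 2, with 4.2 false calls per set. In the real comparison 33.2% of sites had an adjusted p under 0.05, a far larger share than was changed here. Because the adjustment depends on that share, these percentages do not give the power of the test on the real data. TPM carries no read counts, so no counting interval is given.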

Additional observations from a re-analysis of the deposited data

Results flagged for a closer look

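For 14 ends whose mean reached 1 TPM in one of the mutant lines, the difference from WT itself differed between the 2 mutant lines, tested by the direct limma comparison of DIDO3ΔE16 with DIDO3ΔCT+HADIDO3 (adjusted p under 0.05 and a log2 fold change of 0.7 or more either way). At 8 ends the value was higher in DIDO3ΔE16. These were the main ends of Rnaseh2a (3.69), Fanca (1.65), Rad52 (1.01), Rif1 (0.81) and Fancm (0.81), the upstream Fanca end (1.63), the minor Top1 end (0.90) and the upstream Fancc end (0.77). At the other 6 it was lower in DIDO3ΔE16, namely the upstream Blm end (-1.37), the minor Samhd1 end (-1.24), the main ends of Mdc1 (-1.09), Rad51c (-0.88) and Brca2 (-0.70), and the minor Ercc5 end (-0.84). Ends of Atr and Trp53bp1 under 1 TPM passed the same thresholds (-1.54 and 1.26). Of all 21172 sites tested, at any TPM, 27.4% passed them. With 3 libraries per group, no test for a single outlying library was made. The minor Ercc5 call was lost on leaving out any of 5 of the 6 libraries, and the upstream Fancc call on leaving out DIDO3ΔCT+HADIDO3 replicate 3 (0.68).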

How the results depend on the processing

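The number of genes called stayed within 1.5 times its reported value in 58 recomputed counts and moved further in 13. Leaving out 1 library gave 3 to 4 genes in DIDO3ΔE16 against WT, 4 to 7 in DIDO3ΔCT+HADIDO3 against WT and 7 to 9 between the lines. DIDO3ΔE16 against WT gave 1 gene at sites sharing no base on the same strand, 1 at sites of 1 feature sharing no base on either strand (an alternative added after the data were seen, with 11 genes tested) and 14 with no fold threshold. DIDO3ΔCT+HADIDO3 against WT gave 3 with no scaling, 3 with quantile normalization, 3 with TPM summed over a gene, 0 at sites of 1 feature sharing no base on either strand and 20 with no fold threshold. Between the lines, sites sharing no base on the same strand gave 5, sites of 1 feature sharing no base on either strand 2, and no fold threshold 20. Sites sharing no base on the same strand left 29 genes to test, which excluded Top3b, Fancc, Rnaseh2a, Rad52 and Rif1. Of the genes called in any comparison, only Mdc1 and Brca2 were among the 11 at sites of 1 feature sharing no base on either strand. The 0 of DIDO3ΔCT+HADIDO3 against WT thus did not retest the calls of that comparison, whose genes were all left out. No other cause of the changed counts was tested. With the replicate number as a block, limma gave 0 genes in each comparison with WT (smallest adjusted p over all sites 0.069 and 0.079) and 8 between the lines. In the comparisons with WT, WT replicate 4 and mutant replicate 3 had no partner of the same number. Those fits had fewer matched libraries to estimate the spread from than the fit between the lines, so the counts cannot be set beside each other. The numbers do not pair the samples, with correlations of deviations from -0.056 to 0.03. For single ends 550 values kept their direction and side of the threshold, 70 kept only their direction and 5 reversed. Summed over a gene, the reversed values were 0.14 for the downstream Rif1 end in DIDO3ΔE16 against WT, 0.10 for the main Blm end in DIDO3ΔCT+HADIDO3 against WT, and -0.20 and -0.042 between the lines for the upstream Fancc and minor Top1 ends. With overlapping sites merged, the Rif1 value was 0.088. TPM carries no depth, so precision rests on the spread of 3 libraries.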
